A study of Mus musculus with 39 samples.

Results

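The cell cycle and DNA replication genes described here are 36 genes listed by function: 15 genes of DNA replication, 3 cyclins of G1 and S phase, and 18 genes of mitosis. The array carried a probe with a single gene symbol for 31 of the 36, each by 1 probe, out of 13840 genes covered by such probes. A value was present on all 39 arrays for 28 of the 31, against 11591 genes in all, and these 28 were tested: 11 replication genes, 2 cyclins and 15 mitosis genes. Mcm3, Mcm7, Ccne2, Ccnb1 and Mki67 had no probe with a single symbol, and Rrm1, Tyms and Aurka each lacked a value on 1 or 2 arrays.

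The signals came from livers of adult male mice on the 129SV background, either wild type or PPARa-null, meaning that they lack peroxisome proliferator-activated receptor alpha, the nuclear receptor that turns on fatty acid oxidation genes in hepatocytes. All mice were dosed by gavage on 7 consecutive days. In each genotype, groups received the ammonium salt of perfluorooctanoic acid (PFOA), a perfluorinated surfactant that activates this receptor, at 0, 1 or 3 mg/kg in deionized water, or the synthetic receptor agonist pirinixic acid (named in the labels by a Wyeth code) at 0 or 50 mg/kg in 0.5% methylcellulose, so that every group had received a vehicle by gavage. The 39 Applied Biosystems arrays form 10 groups of 4, except wild type with methylcellulose, which has 3; the labels name 4 animals per group and do not describe the deletion in the null mice.

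Cells that enter the cycle first make D cyclins, whose kinases release E2F factors from the retinoblastoma proteins. E2F factors turn on the genes of S phase, among them the helicase subunits Mcm2 to Mcm7, which are loaded at origins by Cdc6 and Cdt1, and the enzymes that supply deoxynucleotides. Genes of mitosis follow in G2. The DREAM complex represses them in quiescent cells through an element called CHR, and B-Myb and Foxm1 later activate them. Adult hepatocytes are mostly quiescent, and activators of the receptor are known to drive them into the cycle in mice.

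Promoters of 4 genes that are called below are shown because E2F and CHR letters can be read from sequence, independently of the array signals. Windows from 250 bases before to 50 bases after the start, from RefSeq on GRCm38.p6, were present for 28 of the 36 genes and absent for Mcm4, Gmnn, Ccnd1, Ccne2, Ccna2, Aurkb, Kif20a and Foxm1. Each run below is the 250 bases before the start in the direction of transcription. Capitals mark matches, on either strand, to E2F letters (TTTCCCGC, TTTGGCGC, TTTCGCGC or TTTGCCGC) or to CHR letters (TTTGAA or TTCGAA). Mcm5 lies at chr8:75109259-75109508 on the plus strand, Mcm6 at chr1:128359706-128359955 on the minus strand, Cdc20 at chr4:118437344-118437593 on the minus strand and Birc5 at chr11:117848987-117849236 on the plus strand.
Mcm5: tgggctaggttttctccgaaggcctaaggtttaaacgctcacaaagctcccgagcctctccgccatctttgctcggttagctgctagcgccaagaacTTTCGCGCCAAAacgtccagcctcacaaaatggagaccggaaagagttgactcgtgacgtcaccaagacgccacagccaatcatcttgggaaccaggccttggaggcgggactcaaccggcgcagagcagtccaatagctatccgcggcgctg
Mcm6: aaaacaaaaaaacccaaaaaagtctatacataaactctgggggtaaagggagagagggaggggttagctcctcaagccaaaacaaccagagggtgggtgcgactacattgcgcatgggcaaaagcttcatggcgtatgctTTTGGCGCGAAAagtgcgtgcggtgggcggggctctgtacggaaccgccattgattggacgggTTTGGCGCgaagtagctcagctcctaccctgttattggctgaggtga
Cdc20: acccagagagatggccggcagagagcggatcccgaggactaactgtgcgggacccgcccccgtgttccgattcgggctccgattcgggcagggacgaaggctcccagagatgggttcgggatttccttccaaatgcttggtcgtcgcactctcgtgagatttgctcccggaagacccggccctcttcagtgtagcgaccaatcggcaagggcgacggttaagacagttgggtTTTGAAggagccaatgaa
Birc5: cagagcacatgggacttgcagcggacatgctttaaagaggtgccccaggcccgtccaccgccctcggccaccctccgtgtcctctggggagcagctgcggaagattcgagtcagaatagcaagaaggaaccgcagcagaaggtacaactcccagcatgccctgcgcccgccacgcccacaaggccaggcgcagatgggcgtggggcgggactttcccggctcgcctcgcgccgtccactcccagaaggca

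The Mcm5 run has a pair of E2F matches that overlap each other, starting at -153 and -149, and Mcm6 has 3, starting at -110, -106 and -47. The Cdc20 run has a CHR match at -18, and the Birc5 run holds neither set of letters. Tk1, also called below, has a window that holds none of the letters searched and is not printed. Over the whole windows, E2F letters stood in 6 of the 13 replication genes and in 1 of the 14 mitosis genes with a window, and in 2.3% of all 32851 windows. CHR letters stood in 12 of the 14 mitosis genes and in 3 of the 13 replication genes, against 19.2% of all windows. The CCAAT box, whose letters can share a base at the end of a CHR match, stood in 13 of 14 and in 9 of 13, against 37.4% of all windows. A match of letters is a description and not a measured binding site.

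Signals are given as the deposited log2 values, on which a difference of 1 is a 2-fold change, and no gene's level is set against another's because each probe has its own efficiency. The median signal was 9.14 on the first array, replicate 1 of null with PFOA 3 mg/kg. Only Cdc45, Gmnn, Pcna, Ccnd1 and Ube2c had mean signals above 11.65, the 95th percentile of 582 probes for genes not expected in liver (called the silent genes below, with their mean on an array as the silent-gene index), so the other 26 with a probe had means within the range of most such probes. Folds below are therefore ratios of deposited signals; for Mcm6, Cdc20, Birc5 and Aurkb the vehicle signals lay well inside that range, so the fold is not a measured ratio of transcripts. The Ube2c probe lay between 20.18 and 20.80 on every array, among the brightest probes of the array; what it hybridizes to was not checked here, and it is counted among the 15 tested mitosis genes. By 84 probes the arrays fell into a set of 16 and a set of 23, unstated in the labels, with all wild-type arrays with pirinixic acid in the larger set. The array titled wild type with PFOA 1 mg/kg, replicate 3, went against its label. The 3 genes checked, Cox6b2, Ehhadh and Cyp4a14, read 9.06, 15.94 and 11.65 on it. The other arrays of its group read 16.38 to 16.95, 20.01 to 20.31 and 20.21 to 20.28. All 3 values lay within the ranges of the null arrays, 6.91 to 10.05, 15.37 to 17.07 and 6.53 to 14.89. The genotype of this mouse was not tested, and the array is kept in its titled group unless said otherwise.

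In wild-type livers, members of both classes were higher after PFOA 3 mg/kg and after pirinixic acid, and the calls fell on Mcm4, Mcm5, Mcm6, Ccnd1, Cdc20, Birc5 and Aurkb. A probe was called with a Benjamini-Hochberg adjusted p under 0.05 in limma, over 25295 probes. With PFOA 3 mg/kg, 4 of the 28 members rose (Mcm4, Ccnd1, Cdc20 and Aurkb) and 0 fell, where 5.82% of all probes were called and 3.37% were called higher. With pirinixic acid, 6 of 28 rose (Mcm5, Mcm6, Ccnd1, Cdc20, Birc5 and Aurkb) and 1 fell (Tk1), where 6.1% of all probes were called, 2.8% higher and 3.3% lower. Several calls were not stable: the Mcm4 and Tk1 calls, and those of Ccnd1 and Birc5 with pirinixic acid, each ended when single arrays were left out, as given with each gene below. Within the larger array set, which holds fewer arrays per group, only the Mcm5 and Mcm6 calls with pirinixic acid were kept. Within the smaller set only the Cdc20 call with PFOA was kept, and pirinixic acid could not be compared there. Fitted on the compared groups alone, limma kept the 4 PFOA calls and none of the 7 with pirinixic acid (adjusted p from 0.0935 to 0.242).

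In null livers the calls were fewer. After PFOA 3 mg/kg, 1 of 28 members rose (Mcm6), where 0.3% of all probes were called and 0.261% were called higher. None was called with PFOA 1 mg/kg (0.0119% of all probes) or with pirinixic acid (0%), nor in wild type with PFOA 1 mg/kg (0.273%). At an unadjusted limma p under 0.05 there were 1, 0 and 8 members in those 3 comparisons, where 3.97%, 2.73% and 11% of all probes had one. Since each signal is an average over the cells of a liver sample, more cells in cycle and more RNA per cycling cell cannot be told apart.

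**Figure D1:**
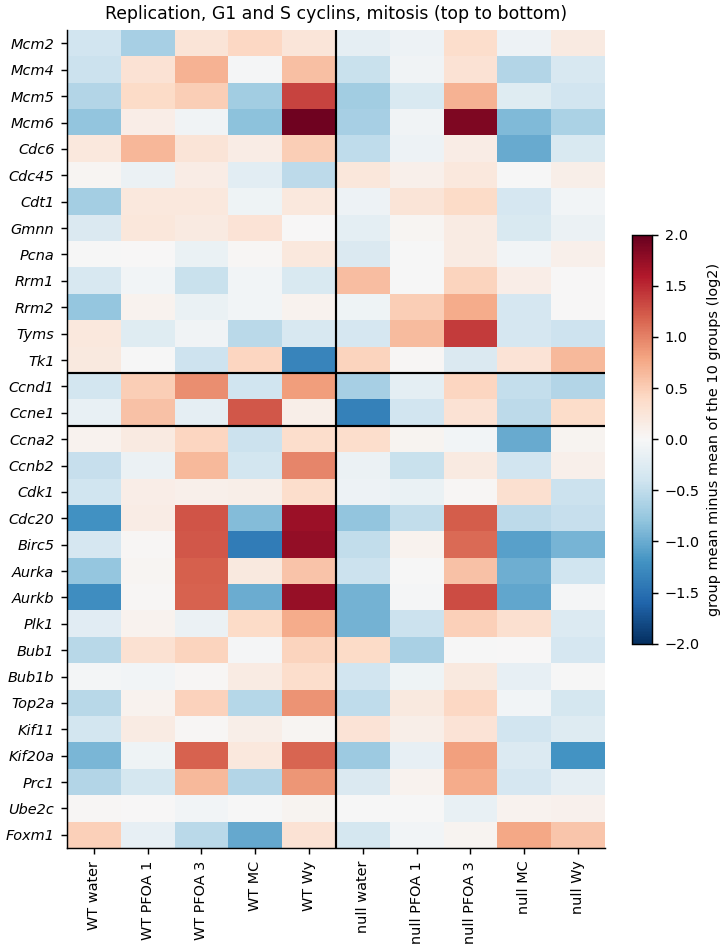
Group mean minus the mean of the 10 groups on the log2 scale (colour) for the 31 members with a probe (rows: replication, G1 and S cyclins, mitosis) in the 10 groups (columns: PFOA in mg/kg, MC is methylcellulose, Wy is pirinixic acid at 50 mg/kg). Cdc20 and Aurkb are above their means in both genotypes with PFOA 3 mg/kg, and in wild type with pirinixic acid.

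Mcm2 to Mcm7 form the helicase ring, and 4 of the 6 subunits had a probe. Mcm2 signals were 8.15, 6.81, 7.68 and 6.58 in wild type with water, 7.16, 6.36, 6.55 and 8.06 with PFOA 1 mg/kg and 8.43, 7.71, 7.56 and 8.05 with PFOA 3 mg/kg. They were 7.80, 9.10 and 7.39 with methylcellulose and 7.27, 8.63, 8.14 and 7.69 with pirinixic acid. The treated ranges overlapped those of their vehicles, and the differences were 0.63 ± 0.55 (SE; limma adjusted p = 0.5967) with PFOA 3 mg/kg and -0.16 after pirinixic acid. In null mice Mcm2 read 6.80, 7.33, 8.41 and 7.47 with water, 7.68, 7.77, 6.94 and 7.92 with PFOA 1 mg/kg and 7.67, 8.57, 9.44 and 6.49 with 3 mg/kg. It read 7.84, 7.93, 7.82 and 6.73 with methylcellulose and 7.73, 6.29, 9.13 and 8.31 with pirinixic acid, again with overlap throughout. Mcm2 thus passed no test, and its probe was dim, with a mean signal of 7.68 over the 39 arrays.

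Mcm4, another subunit of the same ring, rose with PFOA 3 mg/kg in wild type. Its signals were 11.22, 11.06, 10.77 and 10.92 with water, 12.52, 11.40, 11.43 and 11.53 with PFOA 1 mg/kg and 12.00, 12.28, 12.35 and 11.87 with PFOA 3 mg/kg. All 8 treated arrays lay above all 4 water arrays. The difference at 3 mg/kg was 1.13 ± 0.29 (SE; 95% interval 0.55 to 1.72), a 2.19-fold rise (limma adjusted p = 0.01456). Leaving out replicate 3 of the water group gave an adjusted p of 0.0518, and leaving out replicate 3 of the PFOA 3 mg/kg group gave 0.0562. With the silent-gene index as a covariate it was 0.94 (limma adjusted p = 0.0598). With methylcellulose Mcm4 read 11.53, 11.32 and 11.36 and with pirinixic acid 11.71, 12.28, 12.84 and 11.30, where 1 treated array lay below the vehicle arrays and the difference, 0.63 ± 0.31, did not pass (limma adjusted p = 0.2435). Null mice gave 11.07, 10.94, 10.87 and 11.05 with water, 11.05, 11.04, 11.86 and 11.48 with PFOA 1 mg/kg and 11.86, 12.12, 12.06 and 10.85 with PFOA 3 mg/kg. Of the last group, 3 arrays lay above the water range and replicate 4 below it, and the difference of 0.74 ± 0.29 did not pass (limma adjusted p = 0.459). With methylcellulose and with pirinixic acid the null signals were 10.82, 11.23, 10.92 and 10.41 and 10.72, 11.48, 10.87 and 11.39, which overlap.

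Mcm5 was the member for which the genotypes differed in their response to pirinixic acid. In wild type it read 11.04, 9.91 and 10.91 with methylcellulose and 12.37, 13.31, 12.85 and 12.12 with pirinixic acid, with a gap of over 1 between the groups. The rise was 2.04 ± 0.38, or 4.12-fold (limma adjusted p = 0.001067), and it was called with each array left out in turn. Fitted on the compared groups alone, the rise was not called (limma adjusted p = 0.0935). In null mice it read 10.93, 11.08, 11.39 and 10.83 with methylcellulose and 11.01, 11.11, 10.55 and 11.04 with pirinixic acid, which overlap, with a difference of -0.13 ± 0.35. The null response was lower than the wild-type response by a tested -2.17 ± 0.52 (limma adjusted p = 0.02906), the 1 member called in this difference, where 1.24% of all probes were called and 0.542% were called lower. That call ended in 5 of the 15 fits that left out 1 array: replicate 2 of wild type with methylcellulose (adjusted p = 0.105), replicate 2 or 3 of wild type with pirinixic acid, and replicate 3 of null with methylcellulose or with pirinixic acid. It also ended when scaled to the silent genes (limma adjusted p = 0.0606), within the larger array set (0.122) and with the compared groups alone (0.0644).

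With PFOA the Mcm5 differences did not pass. Wild-type signals were 10.42, 10.74, 10.85 and 10.85 with water, 12.48, 10.95, 12.20 and 11.18 with 1 mg/kg and 11.73, 11.91, 12.08 and 11.47 with 3 mg/kg, and all treated arrays lay above the water arrays. The differences were 0.99 ± 0.35 and 1.08 ± 0.35, the latter with a limma adjusted p of 0.06431. A replicate block gave 0.0445 for it, scaling to the silent genes gave 1.25 (0.0388), and the compared groups alone (0.0389) or probes above the median signal (0.0374) also called it. Null signals were 10.75, 10.66, 10.43 and 10.62 with water, 10.30, 10.81, 11.90 and 11.00 with 1 mg/kg and 12.23, 12.30, 12.68 and 10.79 with 3 mg/kg. At 3 mg/kg all null arrays lay above the water range, by little for replicate 4, and the difference was 1.39 ± 0.35 (limma adjusted p = 0.09571). Without that replicate it was 1.79 (limma adjusted p = 0.00846).

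Mcm6 was low in all vehicle groups and was called both in wild type with pirinixic acid and in null mice with PFOA 3 mg/kg. In wild type it read 8.59, 8.24 and 8.04 with methylcellulose and 10.48, 12.72, 10.77 and 10.30 with pirinixic acid. The groups were far apart, by 2.78 ± 0.57 or 6.85-fold in signal over a vehicle group within the range of the silent probes (limma adjusted p = 0.00259), and the call held with each array left out in turn. Fitted on the compared groups alone, Mcm6 was not called here (limma adjusted p = 0.112). In null mice it read 8.46, 9.10, 8.07 and 8.18 with water, 8.06, 10.55, 9.15 and 8.41 with PFOA 1 mg/kg and 10.70, 11.07, 10.50 and 11.70 with 3 mg/kg. All 4 arrays at 3 mg/kg lay above the water range, by 2.54 ± 0.52 or 5.82-fold (limma adjusted p = 0.0165). This call ended in 5 of the 8 fits that left out 1 array (water replicate 1, 3 or 4, or PFOA replicate 2 or 4), with adjusted p up to 0.1.

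The same gene was split in wild type with PFOA. Mcm6 read 8.46, 8.40, 8.18 and 8.31 with water, 10.73, 8.54, 9.60 and 8.12 with 1 mg/kg and 9.58, 8.26, 8.12 and 10.19 with 3 mg/kg. Replicates 1 and 4 at 3 mg/kg were high and replicates 2 and 3 were within or just below the water range, and the difference of 0.70 ± 0.52 did not pass (limma adjusted p = 0.5218). The null response to PFOA 3 mg/kg exceeded the wild-type response by 1.84 ± 0.74 (95% interval 0.33 to 3.34), which did not pass either (limma adjusted p = 0.3433). No member was called in that genotype difference, where 0.415% of all probes were called, and 3 members had an unadjusted limma p under 0.05 (10.7% of all probes). In null mice Mcm6 read 7.90, 8.57, 8.28 and 8.20 with methylcellulose and 8.02, 8.62, 8.37 and 8.90 with pirinixic acid, a difference of 0.24 ± 0.52.

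**Figure D2:**
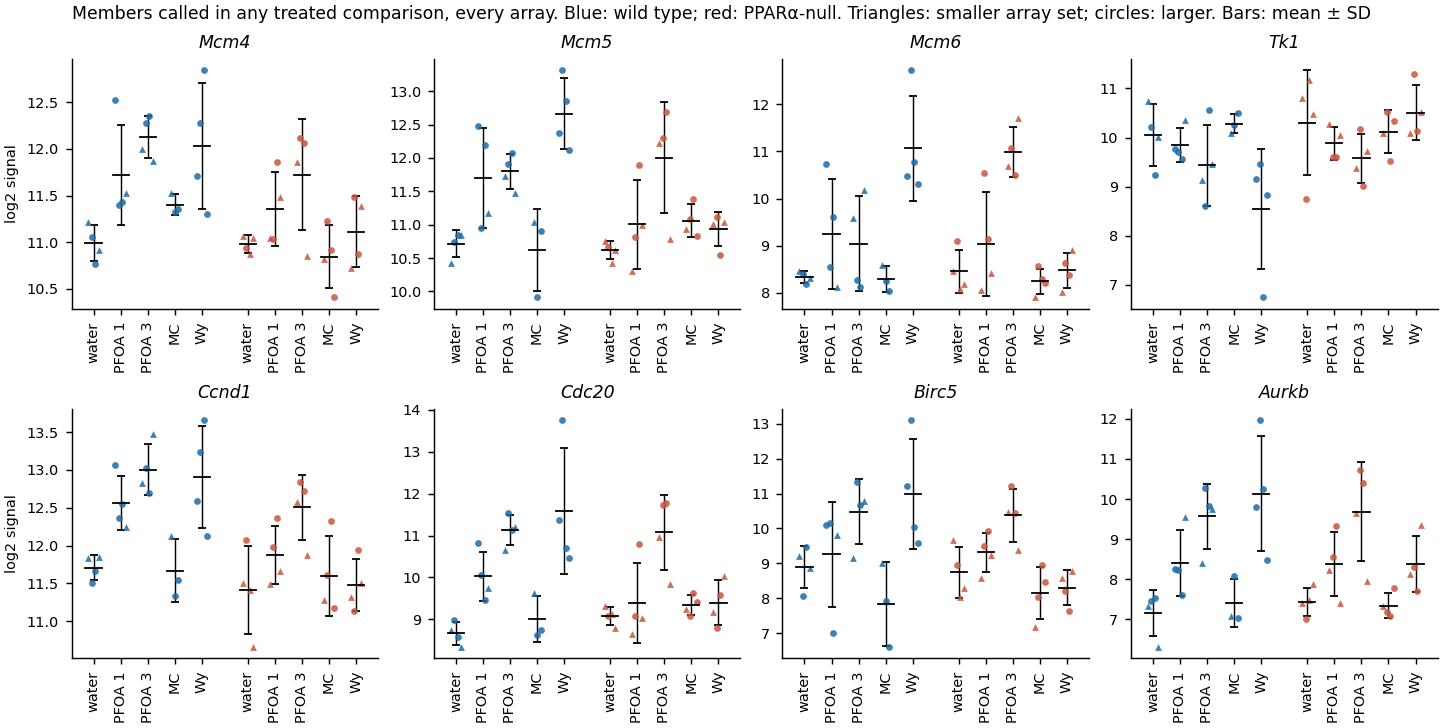
Log2 signal on each array (points; triangles for the smaller array set, circles for the larger) of the 8 members called in a treated comparison, by group, with mean ± SD, wild type in blue and null in red (MC is methylcellulose, Wy is pirinixic acid at 50 mg/kg, PFOA in mg/kg). Mcm6 in null mice with PFOA 3 mg/kg lies between 10.50 and 11.70, above the null water arrays at 8.07 to 9.10.

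Pcna, the sliding clamp of the replication polymerases, stayed within a narrow band. It read 14.59, 15.08, 14.77 and 14.78 in wild type with water, 15.18, 14.75, 14.60 and 14.74 with PFOA 1 mg/kg and 14.58, 14.87, 14.53 and 14.75 with 3 mg/kg. It read 14.60, 15.14 and 14.74 with methylcellulose and 14.52, 15.91, 14.94 and 14.71 with pirinixic acid, where replicate 2 was the highest of all arrays. The ranges overlapped, and the differences of -0.12 ± 0.20 (95% interval -0.53 to 0.28) with PFOA 3 mg/kg and 0.19 ± 0.21 after pirinixic acid did not pass. Null signals were 14.68, 14.58, 14.42 and 14.45 with water, 14.74, 14.91, 14.94 and 14.62 with 1 mg/kg and 14.83, 15.34, 14.90 and 14.85 with 3 mg/kg. The arrays at 3 mg/kg lay above the water arrays by 0.44 ± 0.20 (limma adjusted p = 0.549). Null mice with methylcellulose gave 14.53, 14.86, 14.77 and 14.88, and with pirinixic acid 14.91, 14.92, 15.03 and 14.79.

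Tk1 makes thymidine monophosphate in the salvage route, and it was the only member to fall in any treated comparison. Signals were 10.10, 10.25 and 10.49 in wild type with methylcellulose and 9.15, 9.45, 6.74 and 8.83 with pirinixic acid. Every treated array lay below every vehicle array, and replicate 3 was far below the rest. The difference was -1.74 ± 0.52, a 3.33-fold lower signal (limma adjusted p = 0.04073), and the call ended in 5 of the 7 fits that left out 1 array: any of the 3 methylcellulose arrays, or replicate 3 (-1.14, adjusted p = 0.187) or 4 of pirinixic acid. It also ended with the silent-gene index as a covariate (limma adjusted p = 0.104), with the array set as a block (0.0552) and among probes with at least 2 values in every group (0.0536). With PFOA in wild type Tk1 read 10.74, 10.22, 9.23 and 10.02 at 0, 9.77, 9.71, 9.57 and 10.35 at 1 and 9.13, 8.61, 10.56 and 9.45 at 3 mg/kg, with overlap and a difference of -0.62 ± 0.48 at 3 mg/kg (limma adjusted p = 0.546). Null signals were 10.80, 8.75, 11.17 and 10.47 with water, 10.27, 9.60, 9.61 and 10.06 with PFOA 1 mg/kg and 9.37, 10.17, 9.02 and 9.73 with 3 mg/kg. Those with methylcellulose were 10.10, 10.53, 9.52 and 10.33 and with pirinixic acid 10.09, 11.30, 10.13 and 10.52, overlapping in each comparison. The null minus wild-type difference in the response to pirinixic acid was 2.13 ± 0.71 (95% interval 0.69 to 3.57; limma adjusted p = 0.1235).

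The other replication genes passed no test. Cdt1, the licensing factor, was higher by 0.88 ± 0.30 with PFOA 3 mg/kg in wild type (limma adjusted p = 0.08158), and its inhibitor Gmnn by 0.46 ± 0.21 (0.2129). Cdc6, which loads the helicase with Cdt1, differed by 0.05, Cdc45, which activates it, by 0.10, and Rrm2, a ribonucleotide reductase subunit, by 0.65 ± 0.46. Tyms, which makes thymidylate, was fitted with the probes that have at least 2 values in every group. It read 6.39, 7.96, 8.44 and 7.74 in null mice with water and 8.12, 7.97, 9.77 and 11.62 with PFOA 3 mg/kg, where replicate 4 was the highest. The difference of 1.74 ± 0.57 did not pass (limma adjusted p = 0.3779). Rrm1, fitted in the same way, differed by -0.14 with PFOA 3 mg/kg in wild type.

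Ccnd1, the cyclin D1 gene at the G1 entry, rose with both compounds in wild type. Its signals were 11.83, 11.50, 11.66 and 11.85 with water, 13.06, 12.37, 12.55 and 12.25 with PFOA 1 mg/kg and 12.83, 13.03, 12.69 and 13.47 with 3 mg/kg. All treated arrays lay above the water arrays. At 3 mg/kg the rise was 1.30 ± 0.31 (95% interval 0.66 to 1.93), or 2.46-fold (limma adjusted p = 0.009265), and it was called with each array left out. It was not called within the larger (limma adjusted p = 0.107) or the smaller array set (0.155). At 1 mg/kg the difference was 0.85 and did not pass. With methylcellulose it read 12.13, 11.34 and 11.54 and with pirinixic acid 12.59, 13.24, 13.66 and 12.13, the lowest treated array meeting the highest vehicle array. The rise was 1.24 ± 0.34, or 2.36-fold (limma adjusted p = 0.02303), and the call ended without methylcellulose replicate 2 (1.07, adjusted p = 0.115) or 3, without pirinixic acid replicate 2 or 3, or when scaled to the silent genes (1.08, adjusted p = 0.0621).

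In null mice Ccnd1 read 11.50, 12.08, 11.41 and 10.66 with water, 11.49, 11.98, 12.36 and 11.67 with PFOA 1 mg/kg and 12.58, 12.84, 12.72 and 11.88 with 3 mg/kg. At 3 mg/kg 3 arrays lay above the water range and replicate 4 within it, and the difference of 1.09 ± 0.31 did not pass (limma adjusted p = 0.1782). The null minus wild-type difference in that response was -0.20 ± 0.44 (95% interval -1.10 to 0.69). With methylcellulose and pirinixic acid the null signals were 11.28, 11.61, 12.33 and 11.17 and 11.32, 11.14, 11.94 and 11.51, which overlap, and the genotype difference of -1.36 ± 0.46 did not pass (limma adjusted p = 0.1276). Ccne1, the cyclin E1 gene that acts at the start of S phase, differed by -0.03 ± 0.72 with PFOA 3 mg/kg and by -1.13 ± 0.78 with pirinixic acid in wild type, and by 1.62 ± 0.72 with PFOA 3 mg/kg in null mice (limma adjusted p = 0.5503).

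Among the mitosis genes, Cdk1, the kinase that starts mitosis, gave no difference that passed. It read 8.33, 6.38, 7.58 and 7.88 in wild type with water, 7.89, 7.60, 8.27 and 8.53 with PFOA 1 mg/kg and 7.44, 9.27, 7.18 and 8.21 with 3 mg/kg. It read 8.07, 7.47 and 8.63 with methylcellulose and 7.69, 8.61, 8.18 and 8.62 with pirinixic acid. The ranges overlapped, with differences of 0.49 ± 0.40 (limma adjusted p = 0.5785) for PFOA 3 mg/kg and 0.22 ± 0.44 for pirinixic acid. In null mice it read 7.79, 7.22, 8.13 and 8.16 with water, 7.43, 7.53, 7.71 and 8.56 with 1 mg/kg and 8.25, 8.02, 8.15 and 7.43 with 3 mg/kg. It read 8.87, 8.26, 8.11 and 7.78 with methylcellulose and 7.48, 7.21, 7.02 and 8.35 with pirinixic acid, again overlapping. Its probe had a mean signal of 7.93, below the median of 9.14 on the first array.

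Cdc20, which activates the anaphase-promoting complex and whose promoter run above carries CHR letters, rose in wild type with both compounds. Its signals were 8.75, 8.99, 8.58 and 8.34 with water, 10.83, 10.06, 9.45 and 9.76 with PFOA 1 mg/kg and 10.65, 11.54, 11.13 and 11.20 with 3 mg/kg. Neither treated group overlapped with water, and the 3 mg/kg arrays lay above all but 1 of the 1 mg/kg arrays. At 3 mg/kg the rise was 2.47 ± 0.50 (95% interval 1.45 to 3.49), or 5.53-fold (limma adjusted p = 0.001953). It read 9.63, 8.63 and 8.75 with methylcellulose and 11.38, 13.76, 10.71 and 10.46 with pirinixic acid, where replicate 2 was far above the others. That rise was 2.58 ± 0.54, or 5.96-fold (limma adjusted p = 0.003423), and both calls held with each array left out in turn. Within the larger array set both ended, with limma adjusted p of 0.0784 (PFOA 3 mg/kg) and 0.0625 (pirinixic acid). The main fit shares 1 spread per probe over the 10 groups. The Cdc20 SD with pirinixic acid was 1.50, against 0.73 pooled over the groups. Fitted on the compared groups alone, the pirinixic acid rise had an SE of 0.77 and was not called (limma adjusted p = 0.19).

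In null mice Cdc20 read 9.32, 9.07, 9.12 and 8.79 with water, 8.64, 9.07, 10.79 and 9.03 with PFOA 1 mg/kg and 10.97, 11.73, 11.77 and 9.84 with 3 mg/kg. All 4 arrays at 3 mg/kg lay above the water arrays, by 2.01 ± 0.50 or 4.02-fold, which did not pass (limma adjusted p = 0.08475). Without replicate 4 of that group the difference was 2.42 and was called (limma adjusted p = 0.0305). The null minus wild-type difference in the response to PFOA 3 mg/kg was -0.46 ± 0.71 (95% interval -1.90 to 0.98). With methylcellulose it read 9.24, 9.09, 9.62 and 9.42 and with pirinixic acid 9.18, 8.79, 9.58 and 10.04, a difference of 0.06 ± 0.50. The genotype difference in the response to pirinixic acid was -2.52 ± 0.74 (95% interval -4.02 to -1.02), which did not pass (limma adjusted p = 0.07794).

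Birc5, or survivin, a subunit of the chromosomal passenger complex, was called with pirinixic acid. It read 9.0, 7.92 and 6.60 in wild type with methylcellulose and 11.23, 13.11, 10.04 and 9.58 with pirinixic acid. The groups did not overlap, and replicate 2 was again the highest of the treated arrays and replicate 3 of the vehicle the lowest. The rise was 3.15 ± 0.72, or 8.88-fold in signal over a vehicle group within the range of the silent probes (limma adjusted p = 0.007087), and without that vehicle array it was 2.53 with an adjusted p of 0.0761. Fitted on the compared groups alone, the rise was not called (limma adjusted p = 0.179). With PFOA wild-type mice gave 9.20, 8.06, 9.46 and 8.87 at 0, 10.09, 10.15, 7.01 and 9.80 at 1 and 9.15, 11.32, 10.68 and 10.79 at 3 mg/kg. These overlapped, since replicate 1 at 3 mg/kg lay within the water range, and the difference of 1.59 ± 0.67 did not pass (limma adjusted p = 0.1798). Null mice gave 9.68, 8.96, 8.02 and 8.30 with water, 8.58, 9.49, 9.93 and 9.24 with 1 mg/kg and 10.46, 11.22, 10.43 and 9.38 with 3 mg/kg, a difference of 1.64 ± 0.67 at 3 mg/kg (limma adjusted p = 0.5061). With methylcellulose and pirinixic acid they gave 7.17, 8.03, 8.94 and 8.46 and 8.58, 8.20, 7.64 and 8.79, which overlap.

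Aurkb, the kinase of the same complex, rose with both compounds in wild type. It read 7.32, 7.45, 7.54 and 6.31 with water, 8.25, 8.23, 7.60 and 9.55 with PFOA 1 mg/kg and 8.40, 10.28, 9.82 and 9.76 with 3 mg/kg. All treated arrays lay above the water arrays. The rise at 3 mg/kg was 2.41 ± 0.58 (95% interval 1.24 to 3.58), or 5.31-fold (limma adjusted p = 0.009115). With methylcellulose it read 7.07, 8.09 and 7.04 and with pirinixic acid 9.81, 11.97, 10.26 and 8.49, with no overlap and a rise of 2.73 ± 0.62, or 6.65-fold in signal over a vehicle group within the range of the silent probes (limma adjusted p = 0.006703). Both calls held with each array left out in turn. Within the larger array set both ended, with limma adjusted p of 0.0574 (PFOA 3 mg/kg) and 0.0654 (pirinixic acid). The SD with pirinixic acid was 1.43, against 0.84 pooled over the 10 groups. Fitted on the compared groups alone, the pirinixic acid rise was not called (limma adjusted p = 0.169). In null mice Aurkb read 7.40, 7.02, 7.47 and 7.87 with water, 8.23, 8.56, 9.32 and 7.40 with 1 mg/kg and 9.66, 10.73, 10.41 and 7.95 with 3 mg/kg. The last group lay above water by 2.25 ± 0.58 or 4.75-fold, with replicate 4 just above the water range, and did not pass (limma adjusted p = 0.1032). Without replicate 4 the difference was 2.83 (limma adjusted p = 0.0193). The null minus wild-type difference in that response was -0.16 ± 0.81 (95% interval -1.82 to 1.50). Null mice gave 7.32, 7.18, 7.07 and 7.78 with methylcellulose and 8.14, 8.30, 7.70 and 9.35 with pirinixic acid, a difference of 1.04 ± 0.58 (limma adjusted p = 0.9999).

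The remaining mitosis genes passed no test in these comparisons. With PFOA 3 mg/kg in wild type, Kif20a, a kinesin of cytokinesis, differed by 2.09 ± 0.74 (limma adjusted p = 0.09751), and Aurka, the spindle pole kinase, by 1.95 ± 0.58 in the fit that allows missing values (0.05388). Prc1, which bundles midzone microtubules, differed by 1.23 ± 0.55 (0.2229), Ccnb2, a mitotic cyclin, by 1.10 ± 0.52 (0.2463), and Bub1, a kinase of the spindle checkpoint, by 1.01 ± 0.41 (0.1601). Top2a, which untangles sister chromatids, differed by 1.01 ± 0.70, Plk1, a mitotic kinase, by 0.11, and Bub1b, another checkpoint kinase, by 0.05. Foxm1, the factor that turns on many of these genes, differed by -1.02 ± 0.59 with PFOA 3 mg/kg (0.377) and by 1.31 ± 0.64 with pirinixic acid (0.238). With pirinixic acid, Prc1 differed by 1.46 ± 0.60, Ccnb2 by 1.34 ± 0.56 and Top2a by 1.47 ± 0.76, with limma adjusted p between 0.1486 and 0.2675.

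Replication and mitosis genes were compared as classes by their counts and medians. With PFOA 3 mg/kg in wild type, 1 of 11 replication genes and 2 of 15 mitosis genes rose, where 3.37% of all probes were called higher. The median log2 differences were 0.63 and 1.01 where the median of all probes was -0.02. At an unadjusted limma p under 0.05 there were 12 members (18.6% of all probes). Of the 28 members, 23 had a difference above 0, as had 47.9% of all probes, and 7 tested members lay wholly above the water arrays, as did 5.7% of all probes. With pirinixic acid, 2 of 11 replication genes rose and 1 fell, and 3 of 15 mitosis genes rose. Of all probes, 2.8% were called higher and 3.3% lower. The class medians were 0.19 and 0.95, against -0.03 for all probes, with 22 of 28 differences above 0 (47.5% of all probes) and 10 members at an unadjusted limma p under 0.05 (20.9% of all probes). Here 7 members lay wholly above and 2 wholly below the vehicle arrays, as did 7.8% and 9.55% of all probes.

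Single arrays carried much of the class median with pirinixic acid. Taken as the median over mitosis genes of each array's deviation from the mean of its vehicle group, the 4 arrays stood at 1.66, 2.34, 0.17 and 0.31. The same quantity over replication genes was 0.32, 0.87, 0.11 and -0.41. Replicates 1 and 2 were high and replicates 3 and 4 close to the vehicle in the mitosis class. With PFOA 3 mg/kg in wild type the mitosis values were 0.49, 1.12, 0.52 and 1.00 and the replication values 0.25, 0.78, 0.48 and 0.74, so all 4 arrays were above the water mean in both classes. In the replication class, water replicate 1 stood at 0.55, above PFOA replicates 1 and 3, so the groups overlapped. Leaving out 1 array moved the mitosis median with pirinixic acid between 0.38 and 1.32 and the replication median between -0.10 and 0.51.

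**Figure D3:**
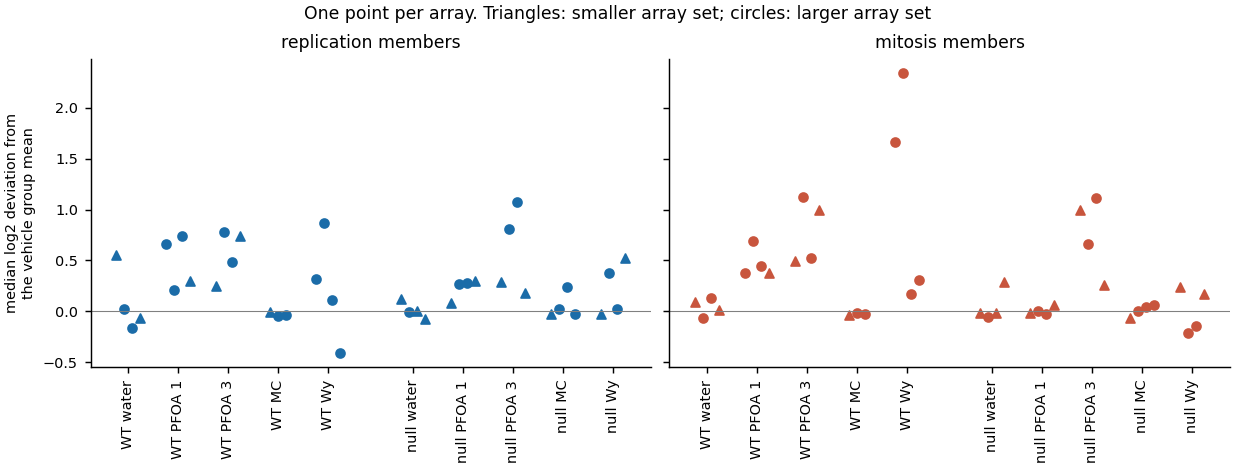
Median log2 deviation from the vehicle group's mean over the tested replication genes and over the tested mitosis genes, 1 point per array (triangles for the smaller array set), by group (PFOA in mg/kg, MC is methylcellulose, Wy is pirinixic acid at 50 mg/kg). The 4 wild-type arrays with pirinixic acid spread from 0.17 to 2.34 in the mitosis class.

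In null mice with PFOA 3 mg/kg the class medians were 0.54 for replication and 0.59 for mitosis against -0.03 for all probes, and 23 of 28 differences were above 0 (46.4% of all probes). At an unadjusted limma p under 0.05 there were 12 members, as had 8.35% of all probes, and 8 members lay wholly above the water arrays (2.47% of all probes): Mcm5, Mcm6, Gmnn, Pcna, Rrm2, Cdc20, Aurkb and Plk1. The per-array mitosis medians were 1.00, 0.66, 1.11 and 0.26. Replicate 4, the lowest of these, was also the lowest array of its group for Mcm4, Mcm5, Ccnd1, Cdc20, Birc5 and Aurkb, and the highest for Mcm6 and Tyms. With PFOA 1 mg/kg in null mice the medians were 0.37 and 0.31, with 20 differences above 0 (48.7% of all probes) and 0 members wholly above the vehicle (2.24%). With pirinixic acid they were 0.27 and 0.06, with 20 differences above 0 (53.9% of all probes) and 1 member wholly above the vehicle (1.32%).

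**Figure D4:**
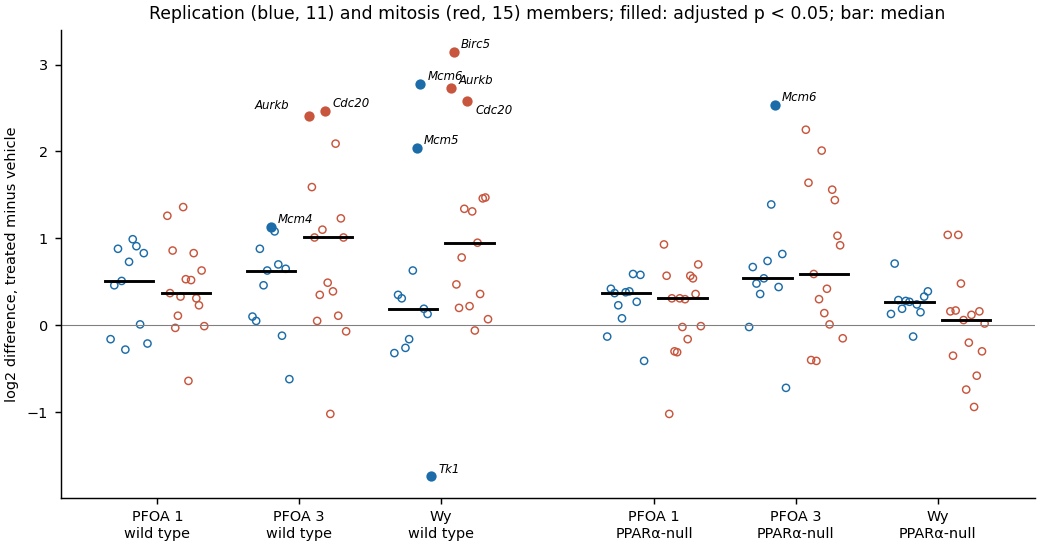
Log2 difference from vehicle of every tested member (points) in the 6 treated comparisons, replication and mitosis genes apart, filled where the limma adjusted p is under 0.05, with the class median as a bar (PFOA in mg/kg, Wy is pirinixic acid at 50 mg/kg). With pirinixic acid the class medians are 0.19 and 0.95 in wild type and 0.27 and 0.06 in null.

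At PFOA 1 mg/kg in wild type, class medians were 0.51 and 0.37 against 0.01 for all probes, 22 of 28 differences were above 0 (50.8% of all probes) and 6 members lay wholly above water (2.91% of all probes). These were Mcm4, Mcm5, Ccnd1, Cdc20 (1.36 ± 0.50, limma adjusted p = 0.3119), Aurkb (1.26 ± 0.58, 0.4211) and Bub1 (0.86). Without the array that went against its label the medians were 0.48 and 0.55, the Cdc20 difference was 1.55, the Aurkb difference 1.53 and the Birc5 difference 1.12, and still 0 members were called. The doses were also compared directly, in the same fit and without pairing. In wild type, 3 against 1 mg/kg called 0 members (0.0277% of all probes), with Cdc20 at 1.11 ± 0.50 (limma adjusted p = 0.6204). In null mice it called 0 (0.00791% of all probes), with Mcm6 at 1.95 ± 0.52 (0.5036) and Cdc20 at 1.70 ± 0.50 (0.6277), and 25 of 28 differences were above 0 (46.8% of all probes). At an unadjusted limma p under 0.05 there were 1 and 4 members, against 7.5% and 4.57% of all probes.

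Responses were compared between genotypes for each treatment. For pirinixic acid the null minus wild-type medians were 0.20 for replication and -0.96 for mitosis genes, against 0.06 for all probes, and Mcm5 was the 1 member called, with 6 at an unadjusted limma p under 0.05 (15.1% of all probes). Beside the values above, Mcm6 differed by -2.54 ± 0.77 (95% interval -4.11 to -0.97; limma adjusted p = 0.08908), Birc5 by -2.99 ± 0.98 (0.1192) and Aurkb by -1.70 ± 0.85 (0.3423). For PFOA 3 mg/kg the medians were -0.09 and -0.20 against -0.01. The 95% intervals for Mcm4 (-1.22 to 0.44) and Mcm5 (-0.71 to 1.32) include differences of up to about the size of the responses themselves, so equal responses were not shown. For PFOA 1 mg/kg 0 members were called (0% of all probes) and 1 had an unadjusted limma p under 0.05 (5.04% of all probes). This was Bub1, which had the lowest difference, -1.88 ± 0.58 (limma adjusted p = 0.8504).

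**Figure D5:**
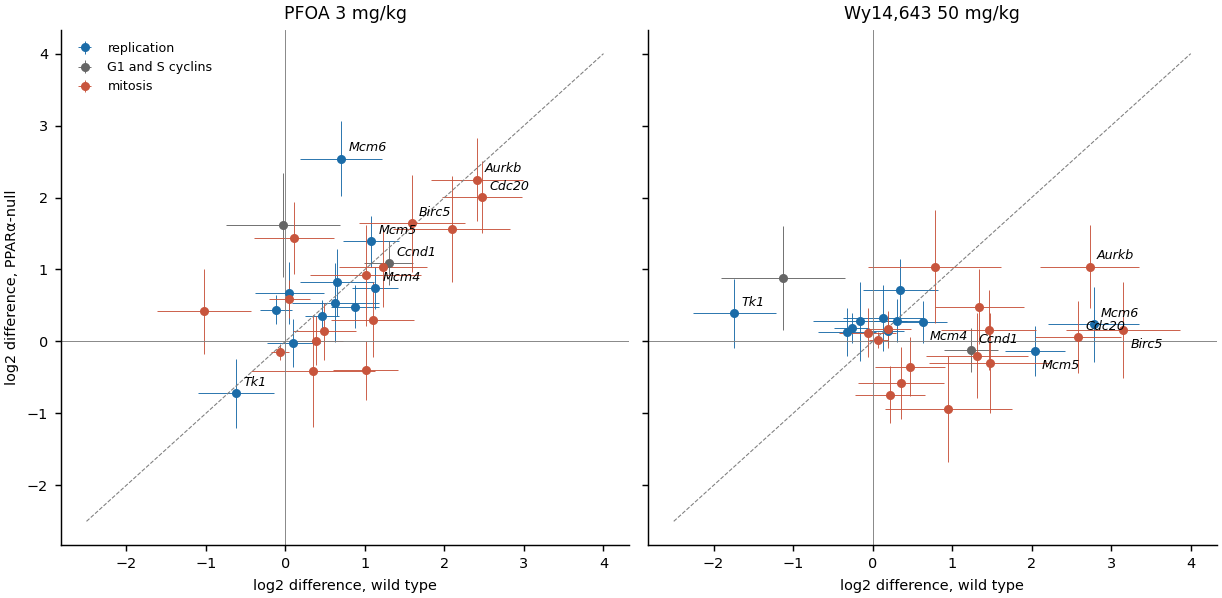
Log2 difference from vehicle in null mice (vertical) against that in wild type (horizontal) for each tested member, with SE bars, for PFOA 3 mg/kg (left) and pirinixic acid at 50 mg/kg (right, titled with its Wyeth code); solid lines mark 0 and the dashed line equality. With PFOA 3 mg/kg Cdc20 lies at 2.47 in wild type and 2.01 in null, and with pirinixic acid at 2.58 and 0.06.

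The compounds were given in different vehicles and doses, so their responses are set side by side and the direct difference is given for reference. In wild type, subtracting the pirinixic acid response from that to PFOA 3 mg/kg called 0 members (0.0119% of all probes), with Mcm6 at -2.07 ± 0.77 (limma adjusted p = 0.2592), Foxm1 at -2.33 ± 0.87 (0.2613) and Cdc20 at -0.11 ± 0.74 (95% interval -1.61 to 1.39). In null mice it called 0 (0.0474% of all probes), with Mcm6 at 2.30 ± 0.74 (0.642). At an unadjusted limma p under 0.05 there were 3 and 6 members (13.4% and 5.16% of all probes). Among vehicle groups, null against wild type called 0 members with water (0.127% of all probes) and with methylcellulose (0.186%). Methylcellulose against water called 0 in wild type (0%) and in null mice (0%). In the same order, 1, 4, 2 and 1 members had an unadjusted limma p under 0.05, as had 10.8%, 12.5%, 8.66% and 11.6% of all probes.

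Other genes of the same pathway, from lists of 40 replication genes, 42 mitosis genes and 42 cell cycle regulators, of which 31, 27 and 27 were tested, were read in the same fit, where 5.82% of all probes were called with PFOA 3 mg/kg in wild type and 3.37% were called higher. With PFOA 3 mg/kg in wild type, 3 replication genes rose: Gins4, part of the helicase, by 0.78 ± 0.21 (limma adjusted p = 0.02267), Lig1, which joins Okazaki fragments, by 1.42 ± 0.34 (0.009786), and Dut, the dUTPase, by 0.54 ± 0.16 (0.03897). Of the mitosis genes 7 rose and 0 fell, led by Nek2, a centrosome kinase (2.09 ± 0.37, 0.0004558), Racgap1, of the central spindle (2.77 ± 0.50, 0.0005313), Mad2l1, of the spindle checkpoint (1.31 ± 0.30, 0.005402), and Pttg1, or securin (1.03 ± 0.26, 0.01515). The list medians were 0.22 and 0.50. Water means were 6.99 for Racgap1, 9.49 for Mad2l1, 9.97 for Nek2 and 9.56 for Lig1, below 11.65, the 95th percentile of the silent probes. Those of Gins4, Dut and Pttg1 were above it. Differences of the former genes are therefore in signal and not measured ratios of transcripts. Among regulators 2 of 27 rose, a share near that of all probes: Lin54, the DREAM subunit that binds CHR, by 0.66 ± 0.15 (0.005013), and Myc by 2.61 ± 0.68, or 6.12-fold (0.01739). The Myc mean was 12.79 against 10.17 with water, the lowest vehicle mean. The other vehicle means were 11.36 in wild type with methylcellulose, and 11.30 (water) and 11.16 (methylcellulose) in null mice.

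With pirinixic acid in wild type, 4 of these 31 replication genes rose and 1 fell, where 2.8% of all probes were called higher and 3.3% lower, among them Rpa1 and Rpa2, which coat single-stranded DNA (0.75 ± 0.18 and 0.74 ± 0.19; limma adjusted p = 0.008317 and 0.01841), Dut (0.65 ± 0.17, 0.02036) and, lower, the replication factor Mcm10 (-1.25 ± 0.35, 0.02945). The Mcm10 probe was bright, with means of 16.46 against 17.71 with methylcellulose, and what it hybridizes to was not checked. Of the mitosis genes 4 rose: Mad2l1 (1.58 ± 0.32), Pttg1 (1.09 ± 0.28), Racgap1 (2.04 ± 0.54) and Tpx2, a spindle assembly factor (2.88 ± 0.76). Tpx2 was also lower in the null than in the wild-type response, by -4.11 ± 1.04 (limma adjusted p = 0.03949). Wild-type methylcellulose means were 7.67 for Tpx2, 7.39 for Racgap1 and 9.61 for Mad2l1, within the range of the silent probes. That of Pttg1 was above the range. No regulator was called, and Myc differed by -0.01. In null mice with PFOA 3 mg/kg, Chaf1b, a histone chaperone of replication, rose by 1.58 ± 0.35 (limma adjusted p = 0.03615). Its water mean, 7.50, was also within the range of the silent probes. Of the 27 mitosis genes, 24 had differences above 0 and 0 were called. Among all probes in that comparison, 46.4% had differences above 0 and 0.3% were called. Cdkn1a, which encodes the kinase inhibitor p21, differed by 2.56 ± 0.94 with PFOA 3 mg/kg (0.1124) and by 3.10 ± 1.02 with pirinixic acid (0.06325) in wild type, and by -0.42 ± 0.94 with PFOA 3 mg/kg in null mice. Trp53 had no probe with a single symbol.

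Marker lists of liver cell types were read beside these results. For each list the signals were summed on the linear scale and the log2 taken, so the brightest genes weigh most. For 6 hepatocyte genes it was 22.68 to 22.88 in wild type with PFOA 3 mg/kg. With water it was 22.96 to 23.08, with no overlap. It was 22.66 to 23.05 with pirinixic acid against 22.84 to 23.12 with methylcellulose. Of these genes Ahsg, which encodes fetuin-A, fell with both, by 0.81 ± 0.20 and 0.87 ± 0.22 on the log2 scale (limma adjusted p = 0.01215 and 0.01278). In wild type with PFOA 3 mg/kg, 1 of 9 Kupffer cell genes fell (Vsig4), where 5.82% of all probes were called in either direction. The log2 of the list's summed signal was 16.25 to 16.48 against 16.80 to 17.05 with water. With pirinixic acid, 4 of 9 fell (Clec4f, Vsig4, C1qa and C1qb), where 3.3% of all probes were called lower. The list stood at 16.29 to 16.72 against 17.08 to 17.33 with methylcellulose. Endothelial genes fell in 2 of 10 and rose in 1 of 10 with PFOA 3 mg/kg (16.73 to 16.92 against 16.99 to 17.11), and fell in 4 of 10 with pirinixic acid (16.57 to 16.91 against 17.07 to 17.34). In null mice with PFOA 3 mg/kg, 0.261% of all probes were called higher. There 1 of 8 neutrophil genes, S100a8, rose by 7.44 ± 0.70 (limma adjusted p = 8.074e-08), with means of 15.55 against 8.11. The summed signal of that list was 15.06 to 16.61 against 12.11 to 12.67 with water. Only 4 of its 8 differences were above 0 (46.4% of all probes), with a median of 0.08. Of 9 stellate cell genes 1, Col1a1, rose by 3.10 ± 0.38 (limma adjusted p = 1.52e-05), while the summed signal of the list was lower, at 18.23 to 18.44 against 18.64 to 18.72. In wild type the stellate sum was 17.93 to 18.16 with PFOA 3 mg/kg against 18.33 to 18.59 with water. The stellate genes Dcn (PFOA 3 mg/kg) and Rgs5 (pirinixic acid) and the erythroid gene Alas2 (pirinixic acid) fell in wild type. No lymphocyte or cholangiocyte gene was called in these 3 comparisons, and no marker can read 0 on this scale. The part of these cell types in the results for the cell cycle genes was not tested.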

How the data were processed

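The deposited table holds 33012 probes on 39 arrays of liver RNA, labelled with digoxigenin after 1 round of T7 amplification and used with an integrity number of at least 8.5, per the labels' protocols. Per the values, the authors deposited log2 signals with equal quantiles on every array; the base was taken as 2 from their range (4.85 to 21.5), while the software, the background correction and why 1.15% of values are missing were found in no source used here. The number of arrays limits the precision.

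The members and lists were chosen with earlier results of these data known. Genes were named from the probe annotation (14411 probes with 1 symbol, 247 with several, 18354 with none). Complete probes, 25295 in number, were fitted in limma 3.58.1 (R 4.3.3) with 10 group means, empirical Bayes moderation and 17 two-sided differences, adjusted over all these probes. Rrm1, Tyms and Aurka came from a fit of 32908 probes with at least 2 values in every group. Values on every array are given for called members and for Pcna, Mcm2, Ccnd1 and Cdk1; of the other lists, up to 4 called genes with the smallest adjusted p are named. Code was tested on simulated data.

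Same-numbered arrays, by the labels' replicate numbers, were checked for pairing. Every pair's deviations correlated above 0.1 between the PFOA doses (0.13 to 0.31 in wild type and 0.10 to 0.19 in null). Elsewhere some pairs did so (methylcellulose against water in wild type gave 0.09 to 0.20). The dose differences given above come from the main fit, which used no pairing. As an alternative, a replicate block over all groups left 0 members called between the doses. Alternatives covered scaling, a silent-gene covariate, the array sets, filters, weights, the groups fitted and each array left out.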

Additional observations from a re-analysis of the deposited data

Results flagged for a closer look

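In 4 of the 99 groups of 4 arrays examined for the 11 members given array by array, 1 array stood far from the other 3; chance gives this in about 1 in 20 groups. Mcm2 was 6.73 on replicate 4 of null with methylcellulose against 7.82 to 7.93 on the others. Mcm4 was 12.52 on replicate 1 of wild type with PFOA 1 mg/kg against 11.40 to 11.53. Pcna was 15.34 on replicate 2 of null with PFOA 3 mg/kg against 14.83 to 14.90. Birc5 was 7.01 on replicate 3 of wild type with PFOA 1 mg/kg against 9.80 to 10.15, and this is the array that goes against its label.

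Mcm5 differed between the genotypes in the response to pirinixic acid, by -2.17 ± 0.52 in null minus wild type (limma adjusted p = 0.02906), a tested difference. The call ended in 5 of the 15 fits that left out 1 array and under 3 of 11 alternatives: scaling to the silent genes (adjusted p = 0.0606), the larger array set (0.122) and the compared groups alone (0.0644).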

How the results depend on the processing

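Of 594 alternative values for counts of called members and class medians, 560 kept the reported value and 34 moved. Kept means within 1.5 times for counts, or within the spread between arrays for medians (0.26 for replication and 0.37 for mitosis). Of 2127 for single members, 2085 kept their call status, 29 lost and 13 gained it, and none turned direction while called. Both totals exclude the fits without 1 array of a compared group, in which further calls ended, as given with each gene. These shares do not measure how stable the calls were, since most of the values were uncalled and most counts were 0. All 29 losses fell on the 13 called results, of which the compared groups alone kept 4. Scaled to the silent genes, the median of all probes shifted to 0.15 for PFOA 3 mg/kg and -0.19 for pirinixic acid in wild type, with 26 and 20 of 28 members above 0; the replication median was -0.37 for the genotype difference in the PFOA 3 mg/kg response and 0.83 for PFOA 3 mg/kg minus pirinixic acid in wild type, and 0 members were called in the genotype difference for pirinixic acid. With the silent-gene index as a covariate, the replication median was 0.35 for PFOA 3 mg/kg in wild type, 0.34 for its genotype difference and -0.11 for PFOA minus pirinixic acid in wild type, the medians for the genotype difference at 1 mg/kg were 0.01 (replication) and 0.14 (mitosis), and 2 members were called for PFOA 3 mg/kg in null. Within the smaller array set, 1 member was called for PFOA 3 mg/kg in wild type, with a replication median of 0.19; the replication median was 0.06 for 1 mg/kg in wild type and 0.09 for its genotype difference, and the medians for PFOA minus pirinixic acid in null were 0.00 and -0.08 (replication, mitosis). Within the larger set, 2, 2 and 0 members were called for PFOA 3 mg/kg and pirinixic acid in wild type and PFOA 3 mg/kg in null, and 0 in the genotype difference for pirinixic acid; of 13 calls it kept 2, those of Mcm5 and Mcm6 with pirinixic acid. Replication medians there were 1.21 for PFOA 3 mg/kg in null, 0.63 for its genotype difference, 0.83 for PFOA minus pirinixic acid in null and 0.17 for methylcellulose minus water in null; mitosis medians were 0.69 for 1 mg/kg in null, 0.13 for its genotype difference, 1.80 for PFOA minus pirinixic acid in null and -0.10 for null minus wild type with water. Among probes above the median signal, 2 members were called in the genotype difference for pirinixic acid. Fitted on the compared groups alone, 0 were called for pirinixic acid in wild type, for PFOA 3 mg/kg in null and for the genotype difference. With array weights, 5 were called for PFOA 3 mg/kg in null and 4 in the genotype difference for pirinixic acid, and the replication median was 0.80 for PFOA minus pirinixic acid in wild type. The causes of these changes were not tested, and some of these fits hold fewer arrays or probes. Leaving out 1 array gave 3 to 6 called members for PFOA 3 mg/kg and 4 to 7 for pirinixic acid in wild type, 0 to 3 for PFOA 3 mg/kg in null and 0 to 2 for the genotype difference. Replication medians then ranged from 0.34 to 0.74, -0.10 to 0.51, 0.35 to 0.94 and -0.15 to 0.48 in the same order, from -0.30 to 0.30 for the genotype difference at PFOA 3 mg/kg and from 0.23 to 0.70 for PFOA minus pirinixic acid in wild type; mitosis medians ranged from 0.38 to 1.32 for pirinixic acid in wild type, -1.42 to -0.85 for its genotype difference and -0.48 to 0.26 for PFOA minus pirinixic acid. A replicate block kept all 13 calls and added Mcm5 for PFOA 3 mg/kg in wild type (1.08, limma adjusted p = 0.0445). Averaging probes gave no other value, since each member has 1 probe, and no wild-type pirinixic acid array is in the smaller set. Dim probes limit the smallest change that can be read.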
